A study of Homo sapiens with 6 samples.

Results

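The 5 stably transfected U87 clones described here carried either full-length human IL-33 or IL-33 without its nuclear localization signal (ΔNLS), and they make up 5 of the 6 arrays of the series. Members were taken by their labels: IL-33 clones 3, 5 and 9 on the one hand, and ΔNLS clones 3 and 4 on the other. The sixth array was a single U87 control that carried the empty pcDNA vector. U87 is an established human glioblastoma cell line, and the study describes it as lacking IL-33 before transfection. All cells were cultured in vitro and went through the same drug selection, so the control shares the vector and the selection with the clones. Each clone is one line grown from selected cells, and each was hybridized once to an Affymetrix PrimeView array, which reads RNA levels through sets of short probes. The question was which transcripts differ when IL-33 can or cannot enter the nucleus.

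IL-33 is a member of the IL-1 family of cytokines. Outside the cell it acts as an alarm signal through the receptor ST2, encoded by IL1RL1, together with the shared co-receptor IL1RAP, and downstream signaling runs through IRAK kinases to NF-κB. Inside the cell its amino-terminal part binds chromatin and holds the protein in the nucleus, and without that part the protein is released. Members of the IL-1 family, IL-6 and the CXC chemokines are classical NF-κB target genes, and in glioma such factors recruit macrophages and neutrophils.

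Levels are log2 values after quantile normalization over the 6 arrays, with 1 probe set per gene and 18132 genes, and every difference is the IL-33 mean minus the ΔNLS mean. The deposited values came in 2 sets that differed in their distribution: the median was 5.61 to 5.62 in the IL-33 clones, 5.43 in both ΔNLS clones and 5.61 in the control. Construct and array set cannot be told apart for the comparison of IL-33 with ΔNLS, whereas the control lies in the set of the IL-33 clones. A level of 4.81, below which 95% of 333 olfactory receptor genes lay, was taken as background, and between 63.4% and 64.2% of genes exceeded it on each array. Correlations across genes were 0.991 to 0.995 among IL-33 clones, 0.996 between the ΔNLS clones and 0.963 to 0.969 between the constructs (genes are not independent replicates). Markers of the mesenchymal glioma state that U87 cells show were above background in 8 to 9 of 9 cases in IL-33 clones and in 9 of 9 in ΔNLS clones and in the control, among them VIM at 13.74 to 13.87. Of 10 myeloid markers 3 to 4 were above background in the IL-33 clones, 3 in the ΔNLS clones and 4 in the control: CD68, TYROBP and CSF1R on every array, and AIF1, within 0.4 log2 units of background, on some. CSF1R and AIF1 were called higher (0.48 and 0.37) and ITGAM lower (−0.29). The CSF1R call was lost with the mean of its probe sets (0.007), and its control level of 7.81 was above both constructs. The defining markers PTPRC, CD14, ITGAM, CX3CR1, LYZ and CD163 did not exceed background on any array.

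The transfected transcript itself was measured first. The IL33 level was 8.38, 6.35 and 9.51 in IL-33 clones 3, 5 and 9, against 6.58 and 6.71 in ΔNLS clones 3 and 4, and 3.38 in the control, below background. All 5 clones thus stood above the control, but the constructs overlapped, with IL-33 clone 5 lower than both ΔNLS clones. The difference was 1.44 ± 0.85 (SE; limma adjusted p = 0.218, n = 3 and 2), and without IL-33 clone 5 it was 2.30 (adjusted p = 0.00572). On another of the 3 IL33 probe sets clone 3 exceeded clone 9, so the order of those clones depended on the probe set, while clone 5 was the lowest IL-33 clone on each. A probe set does not say whether the transcript holds the deleted part. The receptor gene IL1RL1 stayed below background on every array, at 4.54, 4.63 and 4.48 in the IL-33 clones, against 3.75 and 3.95 in the ΔNLS clones and 4.38 in the control.

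Across all genes the limma test called 7795 of 18132 (43.0%) at an adjusted p under 0.05, 3781 of them (20.9%) higher and 4014 (22.1%) lower in IL-33 clones than in ΔNLS clones. Most of these differences were small, and genes at background level were often called too. Of 6024 genes whose mean was at or below background in both constructs 38.2% were called, as were 35.7% of the olfactory receptor genes, but 3.47% and 0.601% when at least a 2-fold difference was also required. The following therefore counts genes that were called and still differed at least 2-fold once every value below background had been set to it, a rule chosen after these shares were seen. By this rule 863 genes (4.76%) differed, 396 (2.18%) higher and 467 (2.58%) lower in IL-33 clones. Higher genes made up 45.9% of these calls, but 54.5% (487 higher, 407 lower) on the deposited values and 33.7% (319 higher, 627 lower) after centering each array on its median, so which direction holds the majority depended on the scaling. Among all calls without the size limit the higher share was 48.5%, against 66.1% on the deposited values and 42.0% after median centering. The count of higher genes dropped to 258 without ΔNLS clone 4, and over the other omissions of a clone it was 331 to 434. At a 2-fold difference and an adjusted p under 0.01, the limits of the study's methods, 466 genes were higher and 612 lower.

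The largest difference among genes above background in all 5 clones was that of a cytokine. IL1B, which encodes the pro-inflammatory cytokine IL-1β, had log2 levels of 12.12, 11.72 and 13.58 in IL-33 clones 3, 5 and 9, against 5.33 and 5.63 in ΔNLS clones 3 and 4 and 6.60 in the control. No IL-33 clone came within 6 log2 units of a ΔNLS clone, and the difference of 6.99 ± 0.53 (SE), or 127-fold, had an adjusted p of 0.00105. CXCL8, the neutrophil chemoattractant IL-8, reached 10.34, 9.03 and 12.98 in the IL-33 clones, against 5.75 and 5.98 in the ΔNLS clones and 8.05 in the control. Here the control lay between the constructs, 2.74 below the IL-33 mean and 2.18 above the ΔNLS mean, and the difference between constructs was 30.3-fold (4.92 ± 1.07, adjusted p = 0.0151). The related neutrophil chemokine CXCL3 had levels of 6.94, 5.70 and 10.84 in the IL-33 clones, against 2.91 and 2.48 in the ΔNLS clones and 5.34 in the control. Because both ΔNLS arrays were below background, the difference is given as at least 8.11-fold (adjusted p = 0.0326). CXCL2, a further member of that chemokine group, measured 8.70, 7.46 and 11.41 in the IL-33 clones, against 5.56 and 5.64 in the ΔNLS clones and 6.79 in the control (difference 3.59 ± 1.08, adjusted p = 0.0404). CXCL2 and CXCL3 are close in sequence, and short probes may not separate them fully.

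The promoters of these 4 genes are shown because NF-κB is the pathway to which their products are classically tied, and 3 of them hold its motif. Capitals mark matches to GGNNTTTCC, a short form of the NF-κB motif, or TGANTCA, a short form of the AP-1 motif, on either strand. Each run of 300 bases ends shortly after the annotated start and is written 5′ to 3′ in the direction of the gene (RefSeq, GRCh38.p14): chr4:73740319-73740618 (+ strand), chr4:74038640-74038939 (− strand), chr4:74099146-74099445 (− strand) and chr2:112836730-112837029 (− strand).
CXCL8: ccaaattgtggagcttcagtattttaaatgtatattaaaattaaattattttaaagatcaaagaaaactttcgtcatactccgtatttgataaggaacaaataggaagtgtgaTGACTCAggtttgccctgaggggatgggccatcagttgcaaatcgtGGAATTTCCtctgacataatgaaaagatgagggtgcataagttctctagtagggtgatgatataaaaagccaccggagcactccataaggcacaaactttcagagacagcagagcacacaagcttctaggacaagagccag
CXCL3: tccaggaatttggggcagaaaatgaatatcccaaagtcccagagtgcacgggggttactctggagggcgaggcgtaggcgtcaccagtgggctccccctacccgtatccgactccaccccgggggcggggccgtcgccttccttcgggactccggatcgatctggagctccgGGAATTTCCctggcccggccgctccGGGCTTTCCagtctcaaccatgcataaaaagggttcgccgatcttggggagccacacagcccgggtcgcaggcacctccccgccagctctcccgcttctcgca
CXCL2: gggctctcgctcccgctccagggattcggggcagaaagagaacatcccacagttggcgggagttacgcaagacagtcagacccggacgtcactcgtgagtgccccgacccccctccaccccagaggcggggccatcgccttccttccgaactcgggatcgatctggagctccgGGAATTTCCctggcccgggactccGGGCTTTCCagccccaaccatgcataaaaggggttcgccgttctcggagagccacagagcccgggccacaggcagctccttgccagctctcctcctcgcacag
IL1B: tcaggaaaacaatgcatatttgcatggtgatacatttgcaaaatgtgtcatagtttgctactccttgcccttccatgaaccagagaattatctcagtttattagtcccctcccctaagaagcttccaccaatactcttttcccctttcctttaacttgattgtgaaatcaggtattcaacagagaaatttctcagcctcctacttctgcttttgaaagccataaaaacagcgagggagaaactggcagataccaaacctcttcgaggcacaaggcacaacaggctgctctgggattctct

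CXCL8 held 1 NF-κB match and 1 AP-1 match, CXCL3 and CXCL2 held 2 NF-κB matches each at nearly the same positions, and IL1B held neither in this window. Over all 14425 promoters of genes in the fit, 6.56% held the NF-κB letters and 5.80% the AP-1 letters. Among the 396 higher genes 329 had a promoter sequence and 6.69% of these held the NF-κB letters, against 6.27% of 367 promoters of the lower genes. The AP-1 letters were in 6.99% and 7.36%. Both sets thus lay close to the share of all promoters, and the matches are a description of sequence, not of binding.

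The study singled out several cytokines in IL-33 cells, of which 8 name a single gene; its entry MIP, a name shared by several chemokine genes, was left out. Of these 8, 6 were higher in IL-33 clones than in ΔNLS clones, none was lower, and 2 did not pass. All 6 also differed at least 2-fold above background. The arrays of the constructs did not overlap in 7 of the 8, each time with the IL-33 clones higher, as in 33.0% of all genes; the opposite separation, seen in 34.5% of all genes, occurred in none of them. Their choice rested partly on these samples, so the count is no independent evidence of its direction. The median difference of the 8 was 4.15, against −0.01 over all genes. IL6, which drives STAT3 signaling in target cells, had levels of 8.55, 7.50 and 12.12 in the IL-33 clones, against 4.69 and 4.94 in the ΔNLS clones and 5.54 in the control (difference 4.58 ± 1.29, adjusted p = 0.0336). For CSF3, the granulocyte colony-stimulating factor G-CSF, they were 9.20, 7.97 and 11.57 in the IL-33 clones, against 5.92 and 5.81 in the ΔNLS clones and 6.32 in the control (3.71 ± 0.98, adjusted p = 0.0269). In both genes the control sat with the ΔNLS clones, within 0.73 log2 units of their mean. The control is a single array from the set of the IL-33 clones, and the study picked both genes as induced over it. The part of the array set in these differences was not tested.

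LIF, an IL-6 family cytokine, showed a different order. Its levels were 9.47, 9.00 and 11.18 in the IL-33 clones, against 7.34 and 7.12 in the ΔNLS clones and 5.04 in the control (2.66 ± 0.62, adjusted p = 0.0185), so that both constructs stood above the control and IL-33 above ΔNLS. IL1RN, the natural antagonist of the IL-1 receptor, measured 5.44, 4.84 and 7.49 in the IL-33 clones, against 4.40 in both ΔNLS clones and 4.79 in the control; the clones did not overlap, but the difference of 1.52 ± 0.74 did not pass (adjusted p = 0.145). CCL2, the monocyte chemoattractant MCP-1, overlapped between the constructs, at 6.58, 4.36 and 7.45 in the IL-33 clones, against 6.49 and 7.17 in the ΔNLS clones, with the control at 3.04. Its difference of −0.70 ± 0.87 (adjusted p = 0.546) turned to 0.19 without IL-33 clone 5.

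**Figure D1:**
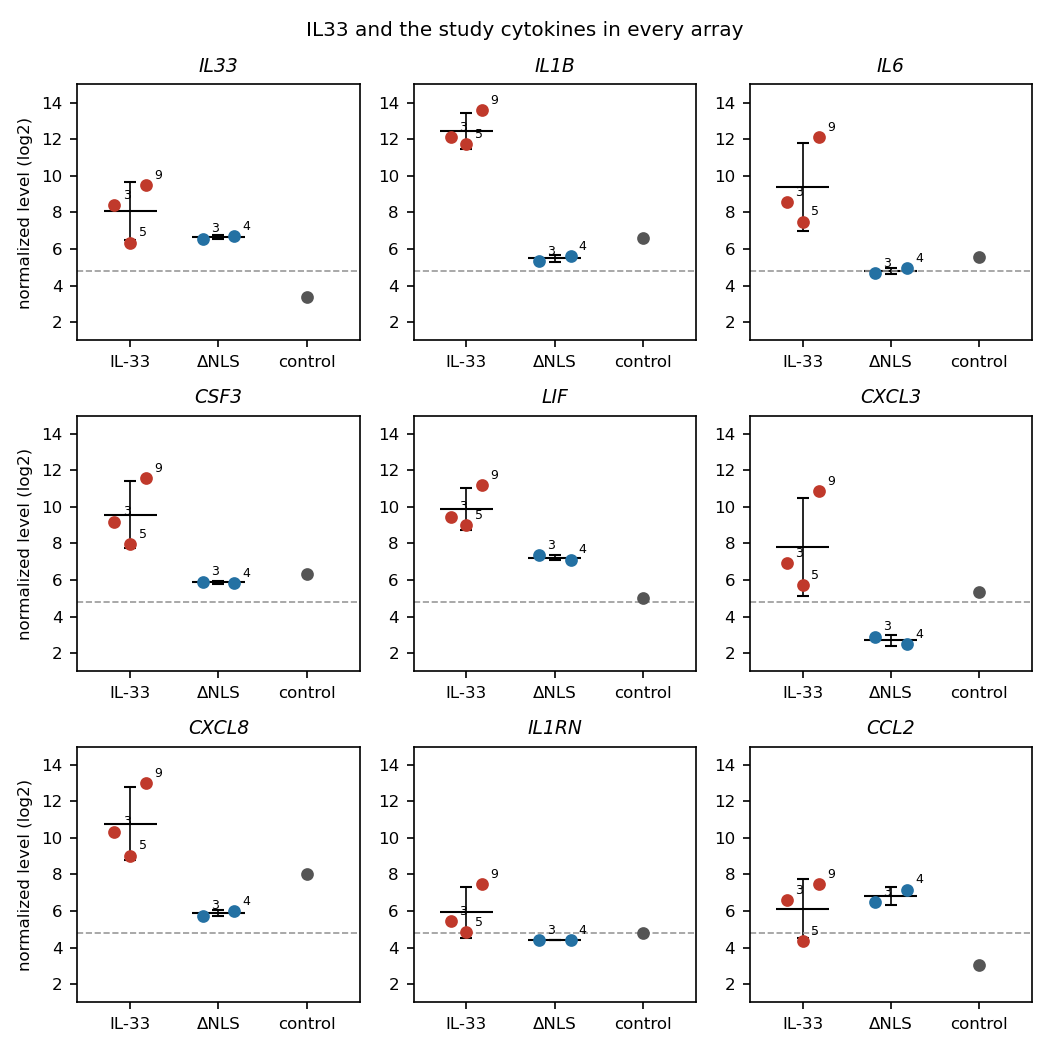
Normalized log2 level of IL33 and the 8 study cytokines in IL-33 clones 3, 5 and 9, ΔNLS clones 3 and 4 and the control array, 1 point per array with the clone number beside it; the black line and bar are the mean and SD of a construct, and the dashed line is the background of 4.81. In each of the 8 cytokines IL-33 clone 9 was the highest and clone 5 the lowest of the IL-33 clones, and LIF and CCL2 are the 2 cytokines in which both ΔNLS clones lay above the control by more than 2 log2 units.

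The IL-33 clones varied far more in these cytokines than in other genes. The SD among the 3 IL-33 clones had a median of 1.71 over the 8 cytokines, against 0.12 over the 12108 genes above background, while the SD between the ΔNLS clones was 0.17 and 0.08. In all 8 cytokines the order was clone 9, then clone 3, then clone 5, an order that 16.5% of genes above background and 24.5% of the 396 higher genes also had. The IL33 level had the same order on the probe set used here, but on another IL33 probe set clone 3 (7.14) exceeded clone 9 (6.61). A link between the IL33 level and these cytokines was not tested. With so wide a spread the calls depended on single clones: 3 of the 8 passed without IL-33 clone 3, and 1, IL1B, passed without either of the ΔNLS clones. The direction of the 6 differences was kept in every omission. IL6 also lost its call with the mean of its probe sets (2.59), and IL6, CXCL3 and CXCL2 lost theirs under robust eBayes. CXCL2, which is not among the 8, also lost its call without IL-33 clone 3 and without either ΔNLS clone.

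The counts of called members in the lists that follow are to be read against the 20.9% of all genes that were called higher and the 22.1% called lower. Of 11 IL-1 family ligands, 6 (54.5%) were higher, 1 was lower (IL18, below background on every array) and 4 did not pass. Of the higher ones IL37 and IL1F10 were below background in every clone, and the other 4, IL1A, IL1B, IL36B and IL36RN, differed at least 2-fold above background (median of the list 1.24). IL1A, which encodes the cell-associated alarm cytokine IL-1α, was at 5.53, 6.64 and 6.28 in the IL-33 clones, against 3.76 and 3.58 in the ΔNLS clones and 5.66 in the control. The control lay among the IL-33 clones here, in contrast to IL1B, and the difference was at least 2.53-fold (adjusted p = 0.00312). IL36B, another agonist of the family, measured 8.44, 4.55 and 7.61 in the IL-33 clones, against 2.85 and 2.70 in the ΔNLS clones and 5.76 in the control, with clone 5 below background. IRAK2, a kinase adaptor downstream of IL-1 receptors, was higher as well (7.41, 7.39 and 8.39 in the IL-33 clones, against 6.20 and 5.81 in the ΔNLS clones and 5.54 in the control; 1.72 ± 0.33, adjusted p = 0.0101). The co-receptor IL1RAP differed by −0.61 ± 0.11 (adjusted p = 0.009), but by −0.12 (adjusted p = 0.271) with the mean of its probe sets, and it did not pass without ΔNLS clone 4.

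Of 17 NF-κB subunits and inhibitors 9 (52.9%, against 20.9% of all genes) were higher in IL-33 clones, 3 (17.6%) lower and 5 did not pass, with a median of 0.52. Those with at least a 2-fold difference were the feedback inhibitors NFKBIA (1.15 ± 0.32), TNFAIP3 (1.55 ± 0.43) and TNIP1 (1.85 ± 0.35) and the subunit RELB (1.17 ± 0.11). RELB, a subunit of the noncanonical pathway, had tight levels of 6.80, 6.99 and 7.06 in the IL-33 clones, against 5.74 and 5.81 in the ΔNLS clones and 6.14 in the control. NFKB1 and NFKB2 were higher by 0.86 and 0.78, RELA did not pass (−0.12 ± 0.10, adjusted p = 0.371), and BCL3, IKBKB and TNIP2 were lower. NF-κB response genes did not move as one: 7 of 26 were higher, 5 lower and 14 did not pass (median 0.23). Among the higher ones were PTX3, a secreted pattern-recognition protein, at 10.09, 9.96 and 10.47 in the IL-33 clones, against 8.08 and 7.68 in the ΔNLS clones and 8.90 in the control, and TNFAIP6 and IER3. TNFAIP2 went the other way, with 5.91, 6.44 and 5.88 in the IL-33 clones, against 7.97 and 8.39 in the ΔNLS clones and 4.92 in the control. ICAM1, an adhesion molecule commonly used as an NF-κB readout, gave a difference of 0.33 ± 0.22 that did not pass (adjusted p = 0.258).

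Prostaglandin synthesis was represented by its inducible and its rate-limiting enzymes. PTGS2, which encodes the inducible cyclooxygenase COX-2, was at 8.13, 7.23 and 10.31 in the IL-33 clones, below background at 3.99 and 3.86 in the ΔNLS clones, and 6.93 in the control. It was at least 13.4-fold higher (adjusted p = 0.00863), and the control stood just under the lowest IL-33 clone. The call was lost without either ΔNLS clone (adjusted p up to 0.084). PLA2G4A, the phospholipase that releases arachidonic acid, was higher by 2.06 ± 0.16 (adjusted p = 0.00113). In the whole pathway 5 of 13 members were higher, 2 lower and 6 did not pass (median 0.19), the last including the prostaglandin E synthase PTGES at 9.88, 8.98 and 11.18 in the IL-33 clones, against 8.67 and 8.45 in the ΔNLS clones and 8.25 in the control.

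Matrix-degrading enzymes and structural matrix genes moved in opposite directions at their extremes. MMP3, stromelysin, had the second largest difference among genes above background in all 5 clones: 11.23, 10.41 and 12.40 in the IL-33 clones, against 5.67 and 5.53 in the ΔNLS clones and 9.07 in the control (5.75 ± 0.54, 53.7-fold, adjusted p = 0.00149). MMP1, interstitial collagenase, was at 6.57, 5.33 and 7.80 in the IL-33 clones and below background in both ΔNLS clones, and PLAUR, the urokinase receptor, was higher by 1.42 ± 0.14. TIMP3, a matrix-bound inhibitor of metalloproteinases, measured 6.09, 3.38 and 5.75 in the IL-33 clones, against 8.71 and 9.26 in the ΔNLS clones and 7.14 in the control (−3.91 ± 0.80, adjusted p = 0.0123). The metalloproteinase list as a whole had no common direction, with 7 of 21 higher, 6 lower and 8 not passing (median 0.14).

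In the list of collagens and matrix genes 14 of 37 (37.8%, against 22.1% of all genes) were lower, 5 (13.5%) higher and 18 did not pass, with a median of −0.69. In all 51.4% of the list was called, against 43.0% of all genes. EFEMP1, the extracellular glycoprotein fibulin-3, was at 7.62, 7.12 and 6.67 in the IL-33 clones, against 11.03 and 11.26 in the ΔNLS clones (−4.01 ± 0.27, adjusted p = 0.000818). The control was far below all clones, at 1.96, so both constructs stood above it. CDH11, a mesenchymal cadherin, showed the same order at 7.35, 8.59 and 8.57 in the IL-33 clones, against 11.15 and 11.32 in the ΔNLS clones and 1.92 in the control. THBS1, a matricellular protein that regulates TGF-β activation, gave 6.53, 4.89 and 6.93 in the IL-33 clones, against 9.55 and 10.55 in the ΔNLS clones and 8.15 in the control (−3.93 ± 0.64, adjusted p = 0.00602; it did not pass without ΔNLS clone 4). COL5A1, COL13A1, COL16A1 and SPARC were lower by 2-fold or more too, whereas the related THBS2 was higher (2.23 ± 0.16, adjusted p = 0.00089). The fibrillar collagen genes COL1A1 (−1.17 ± 0.62) and COL1A2 (−0.94 ± 0.35) and the fibronectin gene FN1 (−0.81 ± 0.29) did not pass.

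Of 36 growth factor and ERK feedback genes 18 were higher (20.9% of all genes were), 3 (8.33%) lower and 15 did not pass (median 0.48). EREG, which encodes the EGF receptor ligand epiregulin, was at 10.22, 9.20 and 10.67 in the IL-33 clones, against 6.12 and 5.27 in the ΔNLS clones and 10.26 in the control (4.33 ± 0.47, 20.1-fold, adjusted p = 0.00206). For this gene the control was among the IL-33 clones, and the ΔNLS clones stood apart. DUSP6, a phosphatase that inactivates ERK and is itself induced by ERK signaling, reached 10.27, 10.38 and 10.86 in the IL-33 clones, against 7.41 and 7.09 in the ΔNLS clones and 8.92 in the control (3.25 ± 0.20, adjusted p = 0.000732). SPRY4, ETV1, FOSL1, FGF2, HGF and MET were higher by between 1.04 (MET) and 1.94 (SPRY4). The immediate early genes EGR1 and FOS and the gene MYC did not pass, with differences of −0.02, −0.26 and 0.00. In 15 of the 18 higher members the control was nearer the IL-33 mean, a share close to the 77.1% of all 3781 higher genes.

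Lower in IL-33 clones were genes of 2 metabolic lists. In cholesterol synthesis 12 of 20 (60.0%, against 22.1% of all genes) were lower, none was higher, and all 20 differences were negative, between −2.14 and −0.28 (median −0.54). No member was higher at an unadjusted p under 0.05 either, since no difference was positive. HMGCS1, an early enzyme of the pathway, was at 6.25, 6.71 and 6.46 in the IL-33 clones, against 8.88 and 8.34 in the ΔNLS clones and 6.08 in the control (−2.14 ± 0.21, adjusted p = 0.00163). The control sat with the IL-33 clones there, and it was nearer the IL-33 mean in 10 of the 12, a share close to the 82.9% of all 4014 lower genes. In hypoxia and glycolysis 11 of 27 (40.7%) were lower, 2 (7.41%) higher and 14 did not pass (median −0.43); 48.1% of the list was called, against 43.0% of all genes. SLC2A1, the glucose transporter GLUT1, gave 8.05, 6.97 and 7.58 in the IL-33 clones, against 9.34 and 10.07 in the ΔNLS clones and 10.09 in the control (−2.17 ± 0.36, adjusted p = 0.00632; it did not pass without ΔNLS clone 4). Here the control sat with the ΔNLS clones instead, as in 9 of the 11 lower members, among them BNIP3 and PDK1. The PDK1 call was lost without either ΔNLS clone. PKM, the last kinase of glycolysis, was higher (1.36 ± 0.08, adjusted p = 0.00066), with the control at 12.69 beside IL-33 clones at 12.67, 12.49 and 12.62, against 11.29 and 11.19 in the ΔNLS clones.

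The lists given next were split or moved little, except that of the cancer-testis antigens. Of 29 interferon-stimulated genes 11 were higher, 9 lower and 9 did not pass (median −0.05). In all 69.0% of that list was called, against 43.0% of all genes. RIGI, SAMD9, SAMD9L and IFI44L were higher by between 1.01 (IFI44L) and 1.15 (RIGI). BST2, the surface protein tetherin, was below background in all IL-33 clones and in the control (3.75) but at 7.98 and 7.21 in the ΔNLS clones. Of 41 DNA replication and mitosis genes 7 were higher, 8 lower and 26 did not pass, and none differed 2-fold; the largest difference in either direction was −0.82. Among 19 cancer-testis antigens 10 were lower, 2 higher and 7 did not pass. PAGE1, MAGEC1, MAGEC2, MAGEA11 and VCX were the members lower by at least 2-fold above background, in families whose copies short probes may not tell apart. The immune checkpoint ligand gene PDCD1LG2 was higher at 6.92, 7.50 and 7.66 in the IL-33 clones, against 4.94 and 4.77 in the ΔNLS clones and 6.83 in the control, and CD274, which encodes PD-L1, did not pass (0.10 ± 0.20, adjusted p = 0.716).

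**Figure D2:**
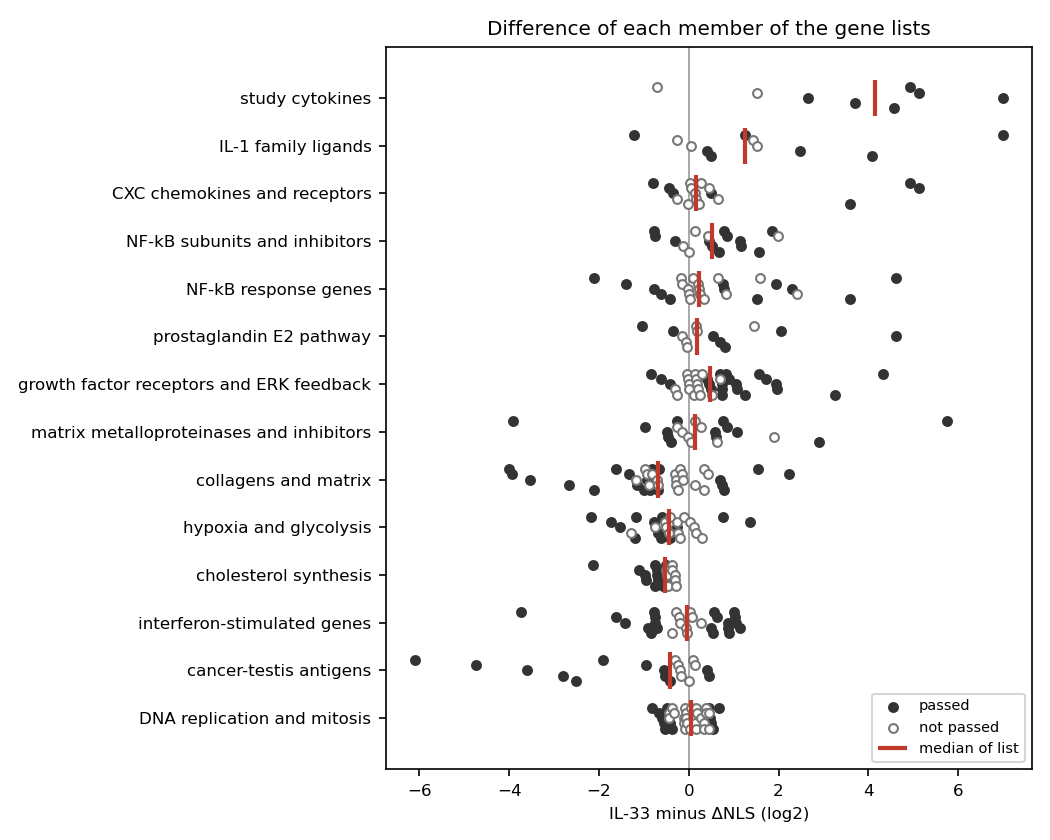
IL-33 minus ΔNLS difference (log2) of each measured member of 14 gene lists, with filled points for members that passed at an adjusted p under 0.05, open points for those that did not, and a red line at the median of the list. All 20 cholesterol synthesis genes lay left of 0, while the DNA replication and mitosis genes stayed between −0.82 and 0.67.

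The remaining leading genes were not cytokines, and several were off in one construct. SMOC1, a secreted calcium-binding protein, was at 8.90, 8.28 and 8.59 in the IL-33 clones, against 5.14 and 5.05 in the ΔNLS clones and 9.05 in the control, and CLGN, a chaperone of the endoplasmic reticulum, and LRRN3, a neuronal leucine-rich repeat protein, differed by 2.90 and 2.99. QPCT, the glutaminyl cyclase that modifies the amino terminus of several chemokines, was at 8.80, 7.90 and 9.59 in the IL-33 clones and 9.01 in the control but below background in the ΔNLS clones, at 3.37 and 2.79 (at least 15.5-fold higher, adjusted p = 0.00126). IL13RA2, the decoy receptor of IL-13 and a glioma surface antigen, was at 5.70, 6.97 and 9.33 in the IL-33 clones, against 3.28 and 2.18 in the ΔNLS clones and 9.24 in the control, a call that was lost without either ΔNLS clone. PNLIPRP3, a pancreatic lipase-related protein, was the reverse case, with a mean of 7.31 ± 0.60 (SD, n = 3) and a lowest value of 6.93 in the IL-33 clones, 1.91 and 1.96 in the ΔNLS clones and 2.75 in the control.

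On the lower side, SERINC2, a membrane protein of the serine incorporator family, was near background in the IL-33 clones at 5.03, 5.14 and 5.03, against 9.98 and 10.78 in the ΔNLS clones and 4.80 in the control (39.8-fold lower, −5.31 ± 0.23, adjusted p = 0.00036). The carboxypeptidase gene CPA4 had levels of 8.66, 8.54 and 8.63 in the IL-33 clones, against 12.55 and 12.70 in the ΔNLS clones and 10.66 in the control, which lay midway (−4.01 ± 0.09, adjusted p = 6.9e-05). ADA, adenosine deaminase, was at 6.18, 6.25 and 5.83 in the IL-33 clones, against 10.45 and 10.66 in the ΔNLS clones and 7.30 in the control. In the cancer-testis antigen VCX the IL-33 clones were below background at 3.89, 4.39 and 3.77, as was the control at 3.61, against 10.18 and 10.03 in the ΔNLS clones (at least 39.3-fold lower, adjusted p = 0.000203). UCA1, a long noncoding RNA, SYT13, PASD1, DMD, ZNF423 and CCN5 had that pattern too: below background in all IL-33 clones and in the control, and between 7.86 and 10.18 in both ΔNLS clones across these genes and VCX.

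**Figure D3:**
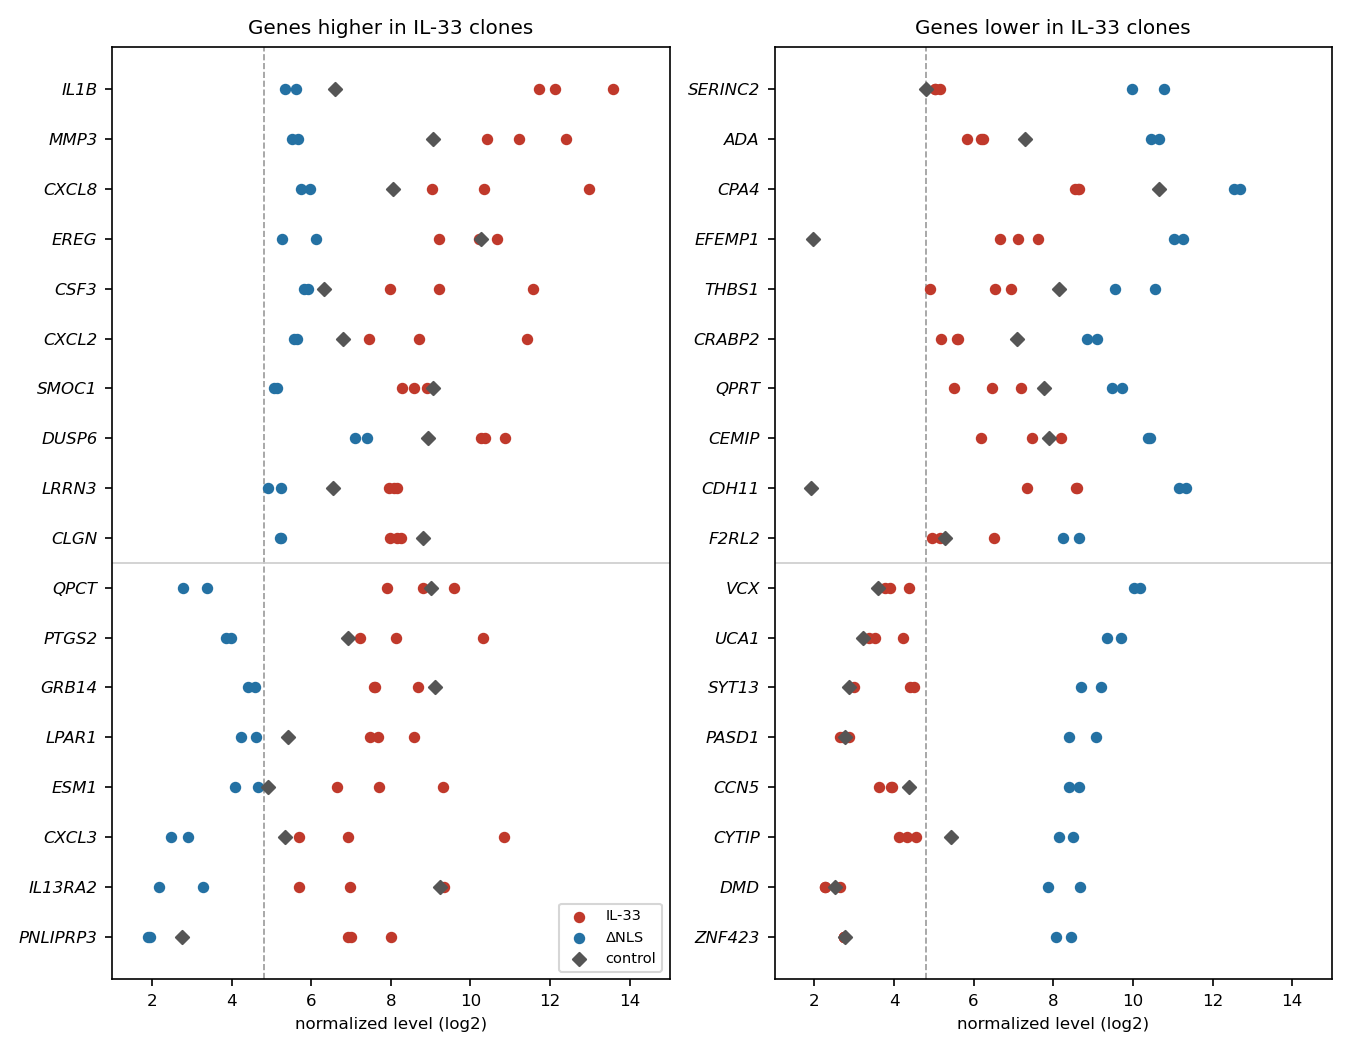
Normalized log2 levels of the genes with the largest differences, 1 point per array, with IL-33 clones in red, ΔNLS clones in blue and the control as a grey diamond; genes above the line had all 5 clones above background (dashed, 4.81), genes under it were at or below background in every clone of one construct. Of the 18 lower genes 11 had the control within 2-fold of the IL-33 mean and none within 2-fold of the ΔNLS mean.

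The control array gives a position for each of these differences, although it is a single array. Distances were taken after values below background had been set to it. Of the 18 leading higher genes the control was within 2-fold of the IL-33 mean alone in 4 (CLGN, EREG, QPCT and SMOC1), of the ΔNLS mean alone in 5 (CSF3, CXCL3, ESM1, LPAR1 and PNLIPRP3), and of neither in 9. Of the 396 higher genes it was within 2-fold of IL-33 alone in 192 (48.5%), of ΔNLS alone in 70 (17.7%), of both in 104 and of neither in 30. For the 467 lower genes the counts were 267 (57.2%), 65 (13.9%), 92 and 43. On the same floored values the control was also nearer the IL-33 mean in 66.0% of all genes above background, and it shares an array set with the IL-33 clones, so the part of the array set in these shares was not tested. IL1B, IL6, CSF3, CXCL8, CXCL2, CXCL3 and LIF belonged to the 113 of 396 higher genes in which the control was nearer the ΔNLS mean. Without the floor there were 109 such genes, and CXCL3 was nearer the IL-33 mean (2.49 below it and 2.64 above the ΔNLS mean). All of the genes just named except CXCL2 are study cytokines. The study picked those as induced in these IL-33 clones over the control, so a control below the IL-33 mean was partly fixed by that choice.

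**Figure D4:**
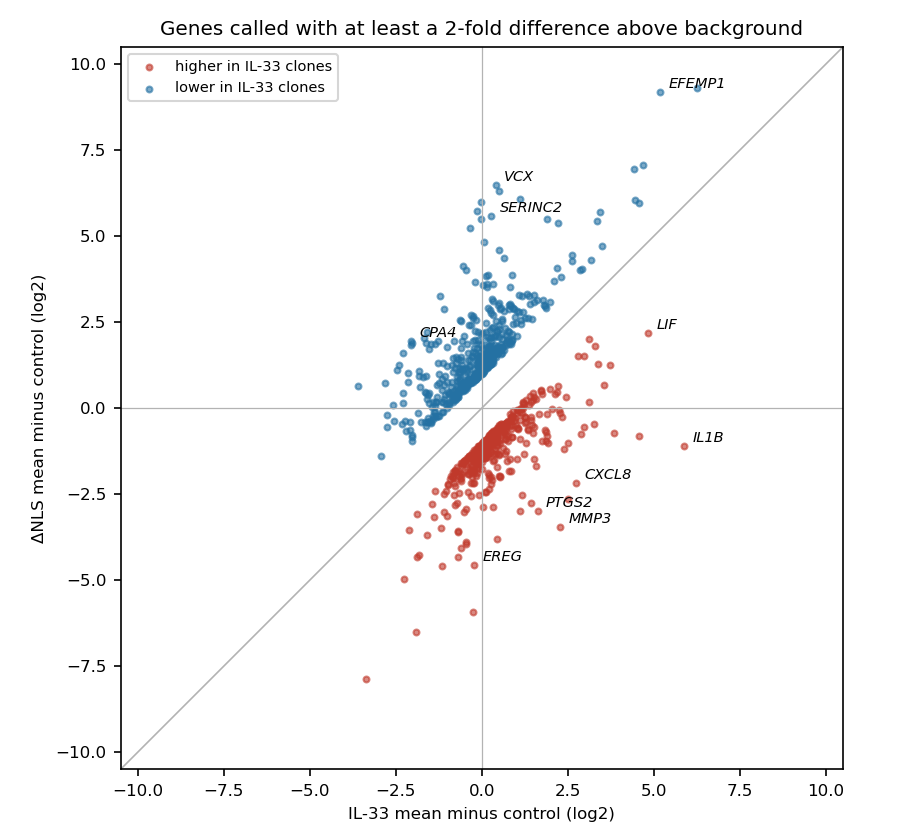
IL-33 mean minus control (horizontal axis) against ΔNLS mean minus control (vertical axis), both in log2 and both using the same control array, for the 396 genes higher (red) and 467 genes lower (blue) in IL-33 clones. Genes along the vertical line at 0, such as EREG and VCX, differ from the control in the ΔNLS clones, IL1B lies far to the right, and EFEMP1 was raised over the control in both constructs.

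The differences were also uneven along the genome. The median difference of genes above background was 0.38 on chromosome 18 (164 genes), 0.21 on chromosome 7 and 0.19 on chromosome 4, and −0.19 on chromosome 16, −0.18 on chromosome 20 and −0.17 on chromosome 19. On chromosome 4, which holds CXCL2, CXCL3, CXCL8 and EREG, all clones were below the control, by a median of 0.33 to 0.54 in the IL-33 clones and 0.65 to 0.70 in the ΔNLS clones. On chromosome 7, 49 of 549 genes above background were higher and 12 lower by at least 2-fold above background. On chromosome 16 there were 3 higher and 29 lower of 578. Among all 12108 genes above background there were 396 higher and 467 lower, 7.13% in all. Without the genes of chromosomes 4, 13, 14 and 18 the counts were 330 higher and 439 lower. Whether such chromosome-wide shifts play a part in the differences of single genes was not tested. In a bulk culture, fewer cells of a type and less RNA per cell cannot be told apart.

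**Figure D5:**
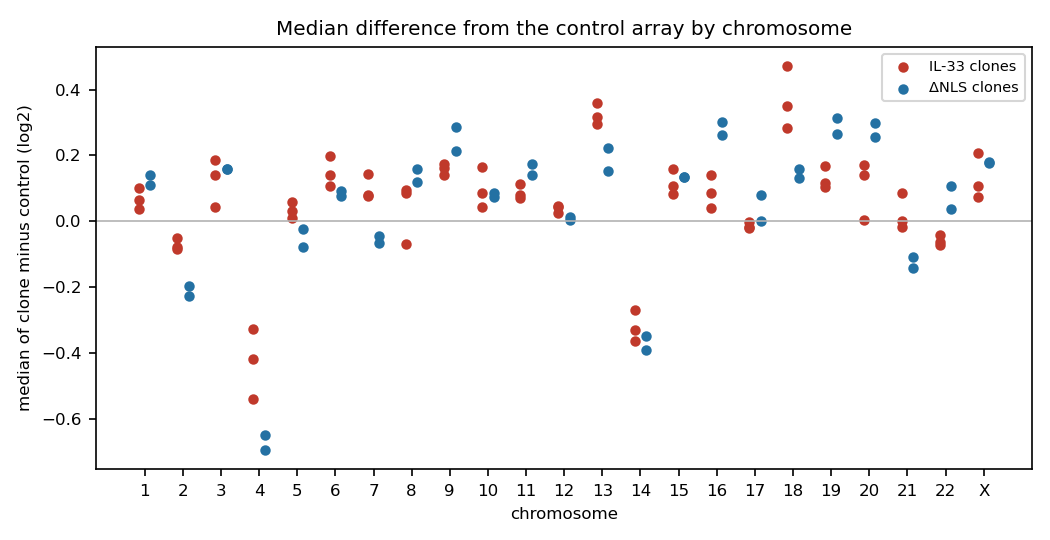
Median, over genes above background on each chromosome, of the log2 difference of each IL-33 clone (red, left) and each ΔNLS clone (blue, right) from the single control array. On chromosome 4 all 5 clones lay below 0 and the ΔNLS clones lower than the IL-33 clones, and on chromosome 18 the IL-33 clones were the higher ones.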

How the data were processed

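Total RNA of 6 U87 lines was amplified by in vitro transcription from the 3′ end and read on Affymetrix PrimeView arrays by the study. The deposited values are log2 probe set levels of 49395 probe sets, made by the authors with Partek 6.0 (from the submitters' processing notes); the background correction and summarization behind them are not given in the sources used here, and arrays have no read depth, so the number of arrays limits the precision. That the scale is log2 was read from the largest value, 14.2, which a natural log (at most 11.1) or a log10 (at most 4.82) of a scanner reading cannot reach.

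These values of all 49395 probe sets were quantile normalized over the 6 arrays. Only probe sets with 1 gene symbol were then kept (44994, while 1832 had several symbols and 2569 none). Each of 18132 genes was represented by its brightest probe set over the 6 arrays. limma 3.58.1 in R 4.3.3 fitted 3 group means (lmFit, eBayes with a trend; 3 residual degrees of freedom), and p-values were adjusted by the Benjamini-Hochberg method across the 18132 genes, with calls at 0.05. The methods' DESeq2 test needs counts and was not used. Background was the 95th percentile of olfactory receptor levels. Where a construct was at or below background on every array, values were raised to that level and the fold is given as a lower bound. Clones are separate lines, each measured once, so p-values are set against the spread between clones of the same construct. The arrays of a construct all lay in 1 array set. The p-values therefore do not cover variation between the array sets, and an offset between the sets can be called as a difference between constructs.

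Gene names came from the platform annotation, and 18112 genes matched RefSeq (GRCh38.p14), which gave chromosomes and promoters. Named genes were IL33, the 8 study cytokines, the 10 highest and 10 lowest differences with all clones above background, the 8 highest and 8 lowest with the dimmer construct below it, and up to 4 called members of each of 27 lists with the smallest p; other list members were named after their values were seen. Members and lists were chosen with earlier results of these data known. On simulated data the fit recovered 61.2%, 94.0% and 100% of genes changed by 1, 2 and 3 log2 units, with 8 false calls. Those data held independent noise, 200 changed genes and no difference between array sets. The shares therefore do not say how many calls in the real arrays are correct.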

Additional observations from a re-analysis of the deposited data

How the results depend on the processing

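Alternatives were the deposited values, median centering, a fit of the 5 clone arrays, the mean of a gene's probe sets, a filter on dim genes, eBayes without a trend or robust, leaving out chromosomes 4, 13, 14 and 18, and leaving out each clone; a sole remaining ΔNLS clone was assumed to vary like the other groups. Called higher genes numbered 3781 in the fit reported and 5696 on the deposited values, which moved the median of all genes to 0.13. Leaving out a clone gave 1911 to 3762 higher genes (1979 without ΔNLS clone 3, 1911 without ΔNLS clone 4) and 1967 to 4111 lower genes (2238 and 1967 without those clones). With the 2-fold limit the ranges were 258 to 434 higher (258 without ΔNLS clone 4) and 320 to 491 lower. Scaling turned their balance: 487 higher and 407 lower on the deposited values, 319 and 627 after median centering. With the mean of probe sets SPRY4 moved to 0.87, TNFAIP2 to −1.01, SYT13 to −2.48, DMD to −2.80, PDCD1LG2 to 1.66 and IL1RN to 2.33. The study cytokines called ranged over 1 to 7, with 3 without IL-33 clone 3 and 1 without either ΔNLS clone. The IL33 difference ranged over 0.72 to 2.30, the highest without IL-33 clone 5. With the mean of probe sets CCL22, ITGAV and TP53INP1 turned to 0.000393, 0.0659 and 0.0907. The CCL2 difference ranged over −1.36 to 0.19 as clones were left out, and was positive only without IL-33 clone 5. The cause was not tested. Of the other comparisons of a single named gene with its reported value, 1600 kept direction and side of the threshold, 82 lost the call and 1 gained it. These counts pool all alternatives, several of which changed no named call. Most of the lost calls came from leaving out a ΔNLS clone. No paired analysis was possible because the constructs share only 1 clone number, 3, and a clone number marks no common origin.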

Other observations

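The genes and families given here were chosen after their values were seen and are given without a test of the family. Most lie outside the lists and leading genes above, but members such as FOSL1, CCN5 and ZNF423 were already named there. IFITM1, IFITM2 and IFITM3, interferon-inducible membrane proteins that block virus entry, differed by −2.32, −2.70 and −2.44; their sequences are so alike that short probes may read more than one of them. IFITM2 was at 7.63, 8.15 and 7.58 in the IL-33 clones, against 10.45 and 10.53 in the ΔNLS clones and 6.96 in the control. The contractile genes TAGLN (−2.88 ± 0.52), MYL9 (−1.43 ± 0.12), TPM2 (−1.37 ± 0.29), CNN2 (−1.26 ± 0.07) and MYLK (−1.09 ± 0.16) were lower, and CCN2 and CCN5, matricellular proteins, differed by −1.79 and −4.69. Keratin genes were called no more often than genes in general. Of 48, 9 were higher and 9 lower (median −0.07 over the 20 above background), against 20.9% and 22.1% of all genes. KRT222 was higher by 2.08. Among the lower ones KRT7, KRT8 and KRT80 were at or near background in the IL-33 clones, for example KRT80 at 4.46, 3.50 and 3.76, against 7.31 and 8.32 in the ΔNLS clones and 6.21 in the control.

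The zinc finger genes named ZNF, many of which form clusters on chromosome 19, held 19 genes lower and 3 higher by at least 2-fold above background among 315 above background. Of all 12108 genes above background 467 were lower and 396 higher by that rule (7.13% in all, close to the ZNF share). Of the 138 on chromosome 19, 16 were lower and none higher (median difference −0.31), and of the 177 elsewhere 3 were lower and 3 higher (median 0.02). All 896 genes above background on chromosome 19 held 40 lower and 6 higher (median −0.17). ZNF91, a repressor of retroelements, was at 6.06, 7.47 and 6.96 in the IL-33 clones, against 9.22 in both ΔNLS clones and 2.15 in the control. Protocadherin beta genes, a cluster on chromosome 5, held 4 such lower genes among 8 above background, against 467 among all 12108. Of 11 AP-1 subunit genes 5 were called higher (20.9% of all genes were) and 0 lower, with a median of 0.13 over the 10 above background. JUN (1.42 ± 0.12), MAFF (1.59 ± 0.22) and FOSL1 (1.26 ± 0.11) were those higher by at least 2-fold above background. BDKRB1, the inducible bradykinin receptor, was higher too, at 9.70, 7.52 and 10.19 in the IL-33 clones, against 4.62 and 5.13 in the ΔNLS clones and 8.70 in the control.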
